A study of Mus musculus with 7 samples.

Results

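The enzymes that cut the extracellular matrix and their inhibitors were examined in whole colon tumors of mice. They comprise the matrix metalloproteinases (*Mmp*), the secreted proteases with thrombospondin motifs (*Adamts*) and the tissue inhibitors of metalloproteinases (*Timp*). The genes were chosen by name, as the protein-coding genes of these 3 families, which gave 45 of the 43346 genes in the count table (22 *Mmp*, 19 *Adamts* and 4 *Timp* genes). *Mmp1a* has a matching name but is annotated as a polymorphic pseudogene and was left out, and it had 0 counts in every tumor.

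The tumors came from wild-type recipients whose bone marrow (BM) had been replaced. The labels give their strain as C57BL6/J, and the study's methods give a congenic CD45.1 line. Of the 7 tumors, 4 grew in mice with *Dnmt3a*+/Δ BM, written *Dnmt3a*(+/-) in the sample labels, and 3 in mice with *Dnmt3a*+/+ BM. All mice then received azoxymethane (AOM, a colon carcinogen), 10 mg/kg as 1 dose, followed by 3% dextran sulfate sodium (DSS), which injures the colon lining, in 3 cycles, so the comparison asks what a blood system lacking 1 *Dnmt3a* copy changes in colitis-associated cancer (CAC). The recipients were 8 weeks old according to the labels. The donors of both groups carried *Mx1*-Cre and received poly(I:C), an interferon inducer that switches this Cre on, so the deletion was made in the donors and entered the irradiated recipients with the graft. The names of the count columns begin with BMT18 for replicates 1 and 2 of each group. They begin with BMT8 for *Dnmt3a*+/+ replicate 3 and *Dnmt3a*+/Δ replicates 3 and 4. These prefixes are read here as transplantation experiments. The names for *Dnmt3a*+/Δ replicates 2, 3 and 4, and for no other tumor, also carry an extra suffix whose meaning is not given. This suffix nearly coincides with the group, so its part cannot be told apart from that of the graft.

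Mmps are zinc enzymes that are made as inactive precursors and are switched on when their propeptide is cut off or displaced. Some are secreted and some sit in the cell membrane. Between them they degrade collagens, gelatin, laminins, elastin and many proteins of the cell surface. Adamts enzymes cut proteoglycans such as versican or trim procollagens, and Timps block the active site of the proteases. In inflamed or tumor-bearing colon, *Mmp7* is known as a protease of the epithelial tumor cells, *Mmp2*, *Mmp3*, *Mmp11*, *Mmp13* and *Mmp14* as proteases mainly of fibroblasts and other stroma, and *Mmp8*, *Mmp9*, *Mmp12* and *Mmp25* as proteases of leukocytes. In the lists used below, *Mmp15* and *Mmp28* were added to the epithelial proteases. *Mmp16*, *Mmp19*, *Mmp23*, *Adamts1*, *Adamts2*, *Adamts4*, *Adamts5*, *Adamts9*, *Adamts10*, *Adamts12*, *Adamts14* and *Adamts15* were added to the stromal ones. This placement by compartment comes from general knowledge and was not measured here, because RNA of a whole tumor does not show which cell made it.

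Total counts ranged from 38472738 to 64314999 per tumor. Counts per 1e6 (CPM) were scaled by TMM, which corrects for differences in RNA composition, and CPM divided by exon length (RPKM) was used to rank genes by level. Sums over lists are in CPM unless RPKM is named and are compared between tumors only. *Dnmt3a*+/Δ replicate 2 stood apart from the other tumors before any protease was considered. Its 7 fibroblast markers summed to 666 CPM, against 83.9 to 182 in the other tumors, and its 6 epithelial markers to 7273 CPM, the lowest of the 7 tumors (9295 to 22308 in the others). *Col1a1* and *Col1a2* held 239 and 195 CPM of the fibroblast sum. Single fibroblast markers were 1.18 (*Thy1*) to 6.15 (*Col1a2*) times the next highest tumor. The epithelial sum was mostly *Krt8* and *Epcam*, and *Cdh1* and *Krt18* were not lowest in this tumor. *Dnmt3a*+/+ replicate 3 nearly lacked smooth muscle, with 16.5 CPM over 4 markers against 144 to 702 elsewhere. In such bulk samples, fewer cells of a type and less RNA per cell cannot be told apart. Results that rest on *Dnmt3a*+/Δ replicate 2 are therefore given with and without it.

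Of the 45 genes, 33 had enough counts to be tested. The groups were compared with edgeR's quasi-likelihood test over 15810 genes. Calls required an absolute log2 fold change over 1 together with an adjusted p under 0.05. None of the 33 was called, with adjusted p from 0.361 to 0.971, and the test called 0.00% of all genes. At an unadjusted p under 0.05, 13 of the 33 were higher with *Dnmt3a*+/Δ BM (39.4%) and 0 were lower, where 5.83% of all genes tested were higher and 5.20% were lower (1744 genes, or 11.0%, in either direction). *Adamts12* had under 10 counts in every *Dnmt3a*+/+ tumor and passed the count filter only through *Dnmt3a*+/Δ tumors, and 12 genes were left without it. *Mmp25*, *Adamts8* and *Adamts14* also needed *Dnmt3a*+/Δ tumors to pass, with 12, 14 and 8, 12, 27 and 5, and 11, 31 and 7 counts in the *Dnmt3a*+/+ tumors. They are not among the 13, but they are among the genes above 0 and in the medians below. The 13 were *Mmp7*, *Mmp9*, *Mmp10*, *Mmp11*, *Mmp12*, *Mmp13*, *Mmp14*, *Mmp23*, *Timp1*, *Timp2*, *Adamts7*, *Adamts12* and *Adamts17*. A log2 fold change above 0 was found for 28 of the 33 genes and for 50.2% of all genes, and without *Dnmt3a*+/Δ replicate 2, the tumor that stood apart, for 26 of 32 and for 53.1%. The median log2 fold change of the 33 genes was 1.26, and that of all genes tested was 0.0025. Without *Dnmt3a*+/Δ replicate 2 the median was 0.46 over 32 genes, and 8 of the 32 were higher at an unadjusted p under 0.05 and 0 were lower, against 4.00% and 3.15% of all genes in that fit (7.16% in either direction). Leaving out a *Dnmt3a*+/+ tumor also lowered the count of higher genes. Without replicate 2 it was 3 of 36 (8.33%, against 2.72% of all genes), without replicate 3 it was 7 of 35 (20%, against 6.04%) and without replicate 1 it was 8 of 36 (22.2%, against 4.28%).

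For 10 of the 33 genes the lowest *Dnmt3a*+/Δ tumor exceeded the highest *Dnmt3a*+/+ tumor, and no gene showed the opposite order. Without *Adamts12*, whose nearest tumors were tied in counts, there were 9. Of all genes tested, 6.12% were separated upward and 6.32% downward. DESeq2, run as an alternative with the same 2 thresholds, called 4 of the 33 genes higher (*Timp2*, *Mmp9*, *Adamts12* and *Adamts17*) and none lower, where it called 1.54% of all genes higher. Without *Adamts12* it called 3. It gave no p for *Mmp10*, *Mmp12*, *Mmp13*, *Adamts2*, *Adamts4* and *Adamts9*, because it treats a count that lies far from the rest of its group as an outlier.

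**Figure D1:**
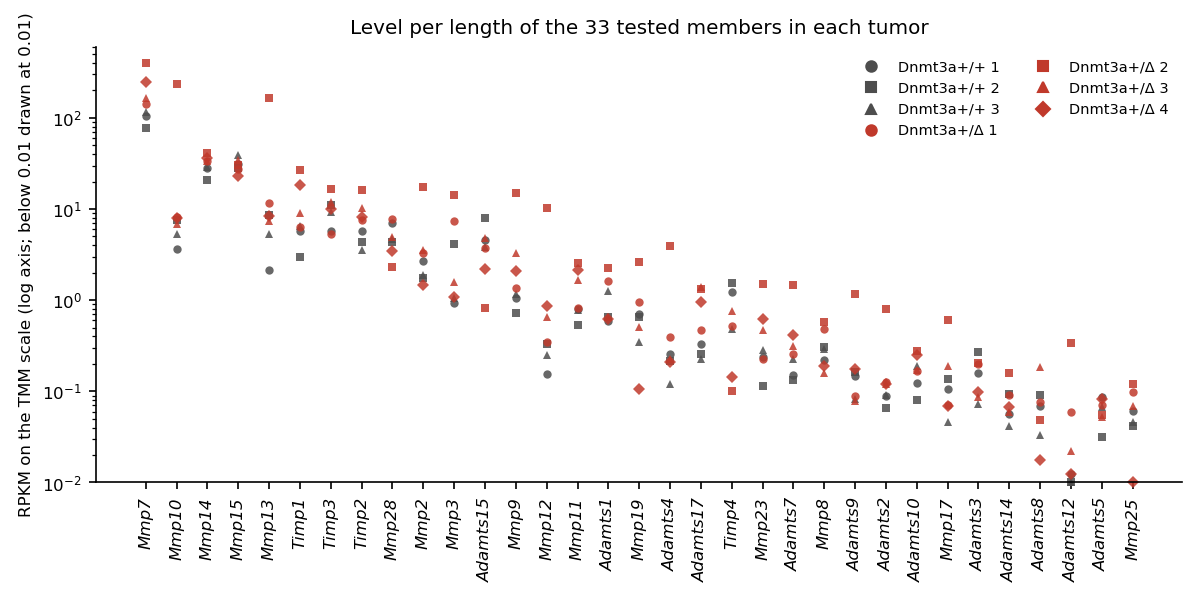
RPKM on a log axis for the 33 tested genes, ordered from the highest mean to the lowest, with 1 point per tumor (grey, *Dnmt3a*+/+ BM; red, *Dnmt3a*+/Δ BM; the symbol gives the replicate). *Mmp7* lies at the top in every tumor, and the red square of *Dnmt3a*+/Δ replicate 2 is the highest point for 25 of the 33 genes.

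*Mmp7* (matrilysin, which cleaves laminins, proteoglycans and cell surface proteins and has no hemopexin domain) was the most abundant protease per length in every tumor, with a mean of 179.6 RPKM. It lies on chromosome 9 of GRCm38 from 7692090 to 7699585. In the order of the replicate numbers, as throughout, the *Dnmt3a*+/+ tumors had 113, 83.0 and 124 CPM and the *Dnmt3a*+/Δ tumors had 151, 428, 178 and 267 CPM. All 4 *Dnmt3a*+/Δ tumors were above all 3 *Dnmt3a*+/+ tumors, and the highest was replicate 2. The log2 fold change was 1.26 ± 0.38 (SE, edgeR adjusted p = 0.377). Without *Dnmt3a*+/Δ replicate 2 it was 0.92, and with each other tumor left out it did not exceed 1.47. The difference lay in the same direction in both experiments, with a log2 ratio of mean CPM of 1.56 in BMT18 and 0.84 in BMT8.

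The other epithelial proteases were not separated between the groups. *Mmp15* is a membrane-bound Mmp whose gene spans 95352268 to 95375080 on chromosome 8 of GRCm38. It was at 169, 151 and 212 CPM with *Dnmt3a*+/+ BM and at 149, 164, 186 and 124 CPM with *Dnmt3a*+/Δ BM. Its groups overlapped, with a log2 fold change of -0.19 ± 0.19 (SE) that was 0.05 when counts were scaled by library size only. *Mmp28* (epilysin) was at 27.5, 16.8 and 18.2 CPM with *Dnmt3a*+/+ BM and at 30.2, 8.94, 18.9 and 13.4 CPM with *Dnmt3a*+/Δ BM, and here *Dnmt3a*+/Δ replicate 2 was the lowest tumor. Its log2 fold change was -0.22 ± 0.41 (SE), and 0.03 without that tumor. All 6 epithelial markers had a log2 fold change below 0 with *Dnmt3a*+/Δ BM (median -0.52, none at an unadjusted p under 0.05). *Krt8*, the most abundant of them, averaged 10304 ± 3972 CPM over the *Dnmt3a*+/+ tumors (SD, n = 3) and 6009 ± 2439 CPM over the *Dnmt3a*+/Δ tumors (SD, n = 4). *Epcam*, the next, was at 2641 ± 618 and 1889 ± 421 CPM, respectively.

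Among the stromal proteases, *Mmp14* had the highest mean level per length (31.8 RPKM). It encodes the membrane-bound collagenase that activates pro-Mmp2 and lies on chromosome 14 of GRCm38 from 54431612 to 54445364. The tumors had 170.0, 123 and 174 CPM with *Dnmt3a*+/+ BM and 199, 244, 203 and 216 CPM with *Dnmt3a*+/Δ BM. The groups did not overlap, the log2 fold change was 0.47 ± 0.17 (SE, edgeR adjusted p = 0.42), and it stayed at 0.43 without *Dnmt3a*+/Δ replicate 2. *Mmp11* (stromelysin-3, typical of fibroblasts next to carcinoma cells) was low but also separated, at 2.23, 1.47 and 2.17 CPM with *Dnmt3a*+/+ BM and at 2.30, 7.07, 4.61 and 5.92 CPM with *Dnmt3a*+/Δ BM. For *Mmp11* the log2 fold change was 1.35 ± 0.44 (SE), and 1.16 without *Dnmt3a*+/Δ replicate 2. *Mmp11* shares 5.58% of its exon bases with *Chchd10* on the other strand, and the sources used here do not say whether counting used strand.

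*Mmp13* (collagenase 3, the main interstitial collagenase of rodents) was dominated by 1 tumor. It was at 5.70, 23.1 and 14.4 CPM with *Dnmt3a*+/+ BM and at 31.3, 445, 19.6 and 22.7 CPM with *Dnmt3a*+/Δ BM, so *Dnmt3a*+/Δ replicate 2 held 14.2 times the next highest tumor. The log2 fold change of 3.17 ± 1.32 (SE) was 0.79 without that tumor. *Mmp2* (gelatinase A) had the same shape, at 9.03, 5.93 and 6.30 CPM with *Dnmt3a*+/+ BM and at 11.2, 59.6, 11.9 and 5.0 CPM with *Dnmt3a*+/Δ BM. Its log2 fold change went from 1.63 with all tumors to 0.43 without replicate 2. *Mmp3* (stromelysin-1) was highest in 2 *Dnmt3a*+/Δ tumors of BMT18, with 1.69, 7.46 and 1.93 CPM in the *Dnmt3a*+/+ tumors and 13.4, 25.6, 2.82 and 1.95 CPM in the *Dnmt3a*+/Δ tumors.

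*Mmp19* and *Mmp23* had the lowest levels per length of the stromal Mmps tested, and both overlapped between the groups. *Mmp19* was at 2.50, 2.33 and 1.22 CPM against 3.34, 9.33, 1.81 and 0.378 CPM, and its log2 fold change of 0.88 ± 0.91 (SE) turned to -0.11 without *Dnmt3a*+/Δ replicate 2. *Mmp19* shares 22.3% of its exon bases with *Tmem198b* on the other strand. *Mmp23* was at 0.564, 0.265 and 0.673 CPM against 0.524, 3.52, 1.10 and 1.46 CPM, a log2 fold change of 1.73 ± 0.72 (SE) and 1.08 without that tumor. Of the 16 stromal proteases tested, *Adamts* genes included, 15 had a log2 fold change above 0 and 14 were highest in *Dnmt3a*+/Δ replicate 2. *Adamts15* was below 0 and was lowest in that tumor. Without that tumor 12 of 15 were above 0.

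**Figure D2:**
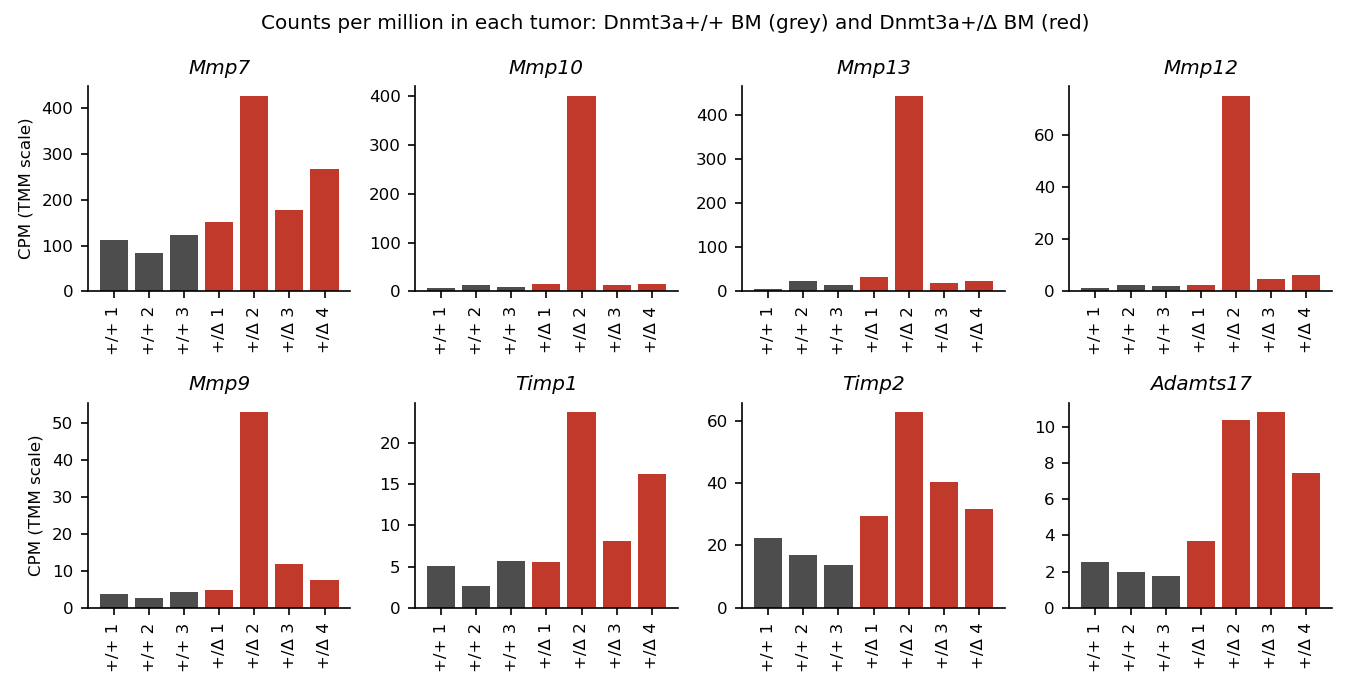
CPM on the TMM scale for 8 genes, with 1 bar per tumor (grey, *Dnmt3a*+/+ replicates 1 to 3; red, *Dnmt3a*+/Δ replicates 1 to 4) and each axis starting at 0. *Mmp10*, *Mmp13*, *Mmp12* and *Mmp9* peak in *Dnmt3a*+/Δ replicate 2, whereas *Adamts17* and *Timp2* are higher in every red bar than in any grey bar.

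Of the leukocyte proteases, *Mmp9* and *Mmp12* were separated between the groups, and *Mmp8* and *Mmp25* were not. *Mmp9* (gelatinase B, stored in neutrophils and also made by macrophages and stroma) lies on chromosome 2 of GRCm38 from 164940780 to 164955850. It was at 3.71, 2.59 and 4.13 CPM with *Dnmt3a*+/+ BM and at 4.79, 52.9, 11.7 and 7.49 CPM with *Dnmt3a*+/Δ BM. The log2 fold change of *Mmp9* was 2.47 ± 0.86 (SE, edgeR adjusted p = 0.406, DESeq2 adjusted p = 0.039), and 1.24 without *Dnmt3a*+/Δ replicate 2. *Mmp12* (macrophage elastase) was at 1.13, 2.40 and 1.84 CPM against 2.50, 75.3, 4.73 and 6.25 CPM. The lowest *Dnmt3a*+/Δ tumor, replicate 1, thus lay only just above the highest *Dnmt3a*+/+ tumor. The log2 fold change of *Mmp12* was 3.63 ± 1.30 (SE) with all tumors and 1.36 without replicate 2.

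*Mmp8* (neutrophil collagenase) was at 0.537, 0.749 and 0.704 CPM against 1.17, 1.41, 0.386 and 0.460 CPM, higher in BMT18 and lower in BMT8. *Mmp25* (leukolysin, a membrane-bound Mmp of neutrophils) was at 0.322, 0.219 and 0.245 CPM against 0.524, 0.632 and 0.366 CPM, and at 0 in *Dnmt3a*+/Δ replicate 4. The 4 neutrophil markers summed to 76.3 to 140 CPM with *Dnmt3a*+/+ BM and to 68.4 to 126 CPM with *Dnmt3a*+/Δ BM, the lowest being *Dnmt3a*+/Δ replicate 2. The most abundant of them, *S100a9* and *S100a8*, were at a mean CPM of 68.4 ± 21.8 and 34.3 ± 9.72 over the *Dnmt3a*+/+ tumors (SD, n = 3) and of 57.0 ± 22.1 and 32.3 ± 11.9 over the *Dnmt3a*+/Δ tumors (SD, n = 4). These genes made up most of the sum, and the less abundant *Csf3r* and *Cxcr2* were not low in *Dnmt3a*+/Δ replicate 2. *Csf3r* was highest there, at 8.88 CPM, and *Cxcr2* was at 5.58 CPM, against 2.41 to 6.54 CPM in the other tumors. The 5 macrophage markers summed to 185 CPM in the same tumor and to 30.2 to 75.2 CPM in the others, and all 5, *C1qa* and *C1qb* being the most abundant, were highest there. Without this tumor the median log2 fold change of the macrophage markers was 0.08, that of the general leukocyte markers was -0.18 and that of the 4 leukocyte proteases was 0.73. The part of leukocyte number in these values was not tested.

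*Mmp10* (stromelysin-2) is made by both epithelial cells and macrophages and was not placed in a compartment. It was at 6.23, 12.9 and 9.21 CPM with *Dnmt3a*+/+ BM and at 13.9, 401, 11.8 and 13.8 CPM with *Dnmt3a*+/Δ BM. *Dnmt3a*+/Δ replicate 2 held 28.8 times the next highest tumor, the largest such ratio of the 33 genes. For *Mmp10* the log2 fold change was 3.54 ± 1.49 (SE), and 0.51 without that tumor. *Mmp10* and *Mmp3* are close relatives, and 8.37% of the 50-base words in *Mmp10* transcripts also occur in *Mmp3*, so their values rest in part on how RSEM divided shared reads. *Mmp17*, a membrane-bound Mmp, was at 0.699, 0.905 and 0.306 CPM against 0.474, 3.97, 1.26 and 0.460 CPM, and its log2 fold change was 1.27 ± 0.87 (SE) with all tumors and 0.23 without replicate 2.

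**Figure D3:**
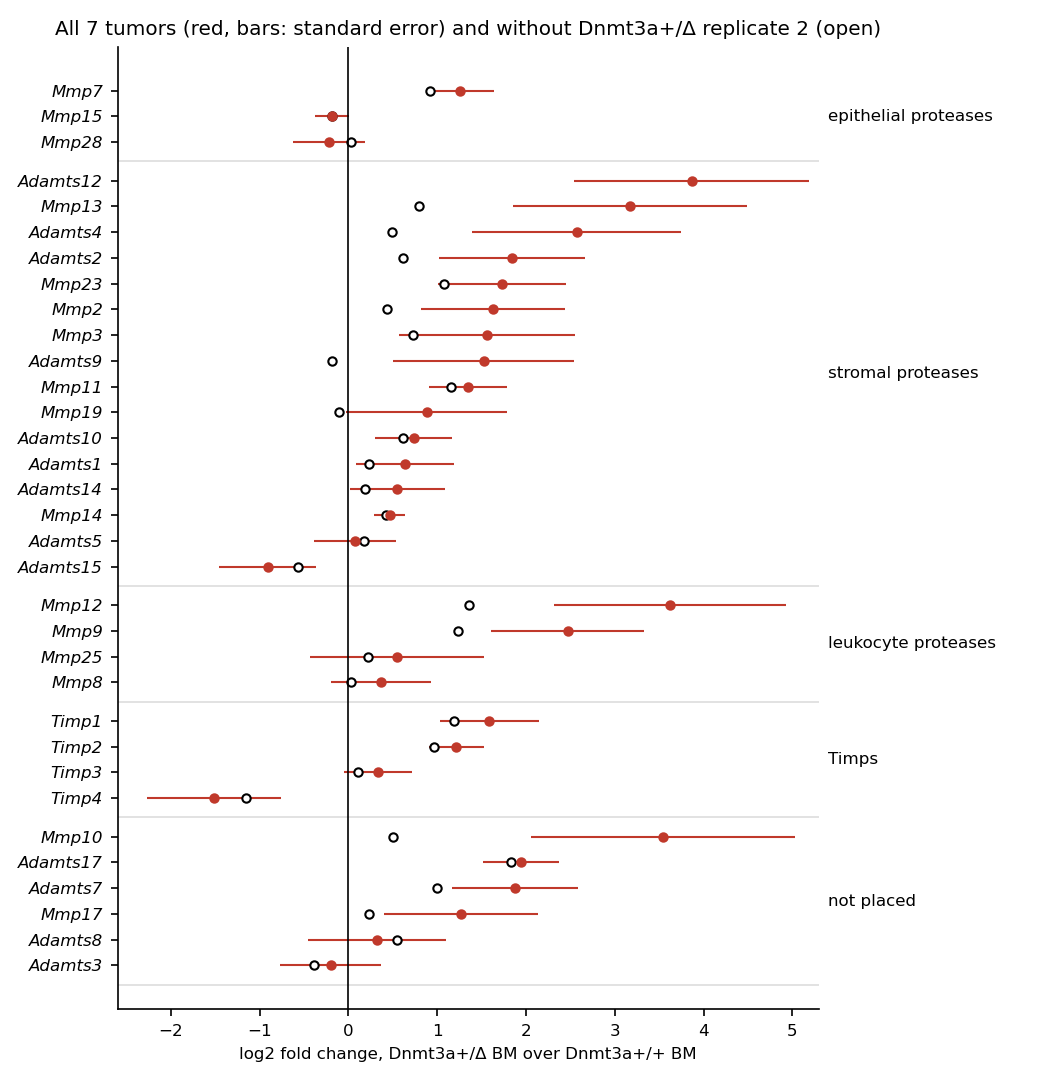
Log2 fold change of each tested gene, *Dnmt3a*+/Δ BM over *Dnmt3a*+/+ BM, grouped by compartment. Red points with bars are the values and standard errors with all 7 tumors, and open points the values without *Dnmt3a*+/Δ replicate 2 (*Adamts12* had too few counts in that fit). The open points of *Mmp10*, *Mmp13* and *Adamts4* lie at 0.51, 0.79 and 0.49 where the red points lie at 3.54, 3.17 and 2.57, and that of *Adamts17* lies at 1.83 beside a red point at 1.94.

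*Mmp7*, *Mmp10*, *Mmp12* and *Mmp13* are neighbors. They lie with *Mmp1b*, *Mmp3*, *Mmp8*, *Mmp20* and *Mmp27* in a cluster of 9 protein-coding genes that spans 427 kb of chromosome 9, from 7272514 to 7699585 on GRCm38. Of these, 6 were tested. All 6 were highest in *Dnmt3a*+/Δ replicate 2, as were 70.4% of the tested family members outside the cluster and 24.7% of all genes tested. Their median log2 fold change was 2.36, and 0.76 without that tumor, against 0.88 and 0.33 for the members outside the cluster. The 9 genes summed to 128 to 152 CPM in the *Dnmt3a*+/+ tumors. In the *Dnmt3a*+/Δ tumors they summed to 214, 1377, 218 and 312 CPM, each above every *Dnmt3a*+/+ tumor. *Mmp7* made up most of this sum in every tumor but *Dnmt3a*+/Δ replicate 2. It held 113, 83.0 and 124 CPM with *Dnmt3a*+/+ BM and 151, 178 and 267 CPM in *Dnmt3a*+/Δ replicates 1, 3 and 4. Of the 6 tested genes, only 2, *Mmp7* and *Mmp12*, had groups that did not overlap.

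Sequence upstream of these genes is shown because several of them share short motifs just before their start. RefSeq promoter windows of GRCm38.p6, 250 bases before to 50 after a start, were at hand for 31 of the 45 genes (34 windows). The windows were searched for the AP-1 motif TGANTCA on both strands, the TATA box TATAAA on the strand of the gene, and the Tcf/Lef motifs CTTTGAA and CTTTGAT on both strands. The last 120 bases before the start follow, 5′ to 3′ on the strand of the gene, with AP-1 and TATA letters in capitals. All lie on the plus strand.
Mmp7 (chr9:7691970-7692089): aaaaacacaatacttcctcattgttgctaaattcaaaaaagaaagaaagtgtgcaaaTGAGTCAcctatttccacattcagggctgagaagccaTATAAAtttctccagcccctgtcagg
Mmp10 (chr9:7502222-7502341): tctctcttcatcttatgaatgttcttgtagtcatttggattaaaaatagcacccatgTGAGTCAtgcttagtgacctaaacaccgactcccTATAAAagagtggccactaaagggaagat
Mmp3 (chr9:7445702-7445821): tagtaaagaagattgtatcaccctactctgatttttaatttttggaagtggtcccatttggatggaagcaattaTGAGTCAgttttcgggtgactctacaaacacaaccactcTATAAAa
Mmp12, the downstream of its pair of windows (chr9:7347254-7347373): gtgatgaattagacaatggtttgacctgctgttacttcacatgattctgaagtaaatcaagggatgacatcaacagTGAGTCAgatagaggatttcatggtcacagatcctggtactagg
Mmp13 (chr9:7272394-7272513): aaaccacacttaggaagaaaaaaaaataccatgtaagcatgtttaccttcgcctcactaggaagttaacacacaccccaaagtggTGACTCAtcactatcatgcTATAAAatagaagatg
Mmp8, in the cluster (chr9:7558309-7558428): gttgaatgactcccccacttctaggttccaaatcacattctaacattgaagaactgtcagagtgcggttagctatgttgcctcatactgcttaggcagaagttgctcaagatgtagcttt
Mmp14, on chromosome 14 (chr14:54431478-54431597): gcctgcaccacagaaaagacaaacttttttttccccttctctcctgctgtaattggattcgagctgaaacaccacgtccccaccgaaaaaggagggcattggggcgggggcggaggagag

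The AP-1 letters stood in 7 of the 11 windows of the cluster (63.6%), each time within 120 bases before the start, and in 0 of the 23 windows of members elsewhere. They stood in 7.81% of all 32851 promoter windows. The 7 windows belong to *Mmp1b*, *Mmp3*, *Mmp7*, *Mmp10*, *Mmp12*, *Mmp13* and *Mmp20*. *Mmp8* and *Mmp27* had none, and neither did the other window of *Mmp7* or of *Mmp12*. The TATA letters stood in 7 of the 11 cluster windows, in 2 of the 23 others and in 8.32% of all windows. The Tcf/Lef letters stood in 3 of the 34 windows of the families (8.82%) and in 8.65% of all windows. The overlapping windows of *Mmp7* account for 2 of the 3 and hold the same site, at 7692094 on chromosome 9, just after the first start. These matches describe the letters, and binding was not measured.

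Among the *Adamts* genes, *Adamts17* differed most evenly. It encodes a secreted protease of fibrillin-rich matrix and lies on chromosome 7 of GRCm38 from 66839735 to 67153171. The levels were 2.55, 1.98 and 1.77 CPM with *Dnmt3a*+/+ BM and 3.69, 10.4, 10.8 and 7.43 CPM with *Dnmt3a*+/Δ BM. The groups did not overlap, and *Dnmt3a*+/Δ replicate 3, not replicate 2, was the highest tumor. The log2 fold change was 1.94 ± 0.43 (SE, edgeR adjusted p = 0.361, DESeq2 adjusted p = 0.0012), and it ran from 1.77 to 2.2 as single tumors were left out. It was 1.63 in BMT18 and 2.36 in BMT8 as a log2 ratio of mean CPM.

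*Adamts7* and *Adamts12*, which cleave cartilage oligomeric matrix protein, were counted among the separated genes, *Adamts12* only after scaling. *Adamts7* was at 0.940, 0.827 and 1.41 CPM against 1.60, 9.33, 1.97 and 2.62 CPM, a log2 fold change of 1.88 ± 0.71 (SE) and 0.99 without *Dnmt3a*+/Δ replicate 2. *Adamts12* was near the floor with *Dnmt3a*+/+ BM, at 5, 3 and 2 counts, and at 26, 182, 12 and 5 counts with *Dnmt3a*+/Δ BM. Its lowest *Dnmt3a*+/Δ tumor and its highest *Dnmt3a*+/+ tumor thus had the same count and lay at 0.135 and 0.134 CPM. *Comp*, their substrate, was also near the floor, at 11, 11 and 6 counts with *Dnmt3a*+/+ BM and at 16, 17, 35 and 18 counts with *Dnmt3a*+/Δ BM. It needed *Dnmt3a*+/Δ tumors to pass the count filter. *Comp* was at 0.217 ± 0.0683 (SD, n = 3) CPM and 0.486 ± 0.161 (SD, n = 4) CPM, and its groups did not overlap, where 6.12% of all genes tested were separated upward.

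The procollagen N-propeptidases trim fibrillar procollagens. *Adamts2* was at 0.833, 0.609 and 0.856 CPM with *Dnmt3a*+/+ BM and at 1.17, 7.52, 1.14 and 1.14 CPM with *Dnmt3a*+/Δ BM, separated but with most of the difference in 1 tumor (log2 fold change 1.84, and 0.61 without it). The other members of that class, *Adamts3* and *Adamts14*, ranged from 0.214 to 1.48 CPM over all tumors and overlapped. Of the 6 tested aggrecan- and versican-cleaving genes, none had an unadjusted p under 0.05. *Adamts15* had the highest mean level per length of all *Adamts* genes (3.99 RPKM) and was lowest in *Dnmt3a*+/Δ replicate 2, at 47.0, 82.2 and 40.1 CPM against 38.9, 8.56, 50.4 and 22.6 CPM (log2 fold change -0.91 ± 0.55, SE). *Adamts4* went the other way in that tumor, at 1.24, 1.05 and 0.581 CPM against 1.90, 18.8, 1.08 and 1.00 CPM. *Adamts1* was at 3.17, 3.47 and 6.61 CPM against 8.58, 12.0, 3.49 and 3.33 CPM, with a log2 ratio of mean CPM of 1.64 in BMT18 and -0.95 in BMT8. *Vcan* (versican), the substrate of this class with the highest level, had a log2 fold change of 0.90 ± 0.65 (SE), and 0.30 without *Dnmt3a*+/Δ replicate 2.

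Of the 4 inhibitors, *Timp2* was separated between the groups and the other three overlapped. *Timp2*, which blocks most Mmps and takes part in the activation of pro-Mmp2 by Mmp14, lies on chromosome 11 of GRCm38 from 118301069 to 118355740. It was at 22.4, 16.8 and 13.7 CPM with *Dnmt3a*+/+ BM and at 29.5, 62.7, 40.3 and 31.6 CPM with *Dnmt3a*+/Δ BM, without overlap. For *Timp2* the log2 fold change was 1.22 ± 0.31 (SE, edgeR adjusted p = 0.361, DESeq2 adjusted p = 0.029), and 0.97 without *Dnmt3a*+/Δ replicate 2. *Timp1*, the inducible inhibitor on chromosome X from 20870166 to 20874735, was at 5.05, 2.64 and 5.72 CPM against 5.61, 23.8, 8.06 and 16.2 CPM. *Dnmt3a*+/Δ replicate 1 lay just below *Dnmt3a*+/+ replicate 3, so the groups overlapped by that pair. *Timp1* had a log2 fold change of 1.59 ± 0.55 (SE), and 1.19 without replicate 2.

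*Timp3*, which binds to the matrix and also inhibits Adamts enzymes, was at 46.6, 90.6 and 75.8 CPM with *Dnmt3a*+/+ BM and at 43.4, 135, 97.3 and 82.6 CPM with *Dnmt3a*+/Δ BM. Its log2 fold change of 0.33 ± 0.38 (SE) was smaller than the scatter of the tumors. *Timp3* shares 21.3% of its exon bases with *Syn3* on the other strand, whose mean was 3.38 CPM. *Timp4* had the lowest log2 fold change of the 33 genes, -1.51 ± 0.75 (SE, edgeR adjusted p = 0.502). It was at 7.31, 9.12 and 2.88 CPM with *Dnmt3a*+/+ BM and at 3.09, 0.591, 4.51 and 0.838 CPM with *Dnmt3a*+/Δ BM. In BMT8 the log2 ratio of *Timp4* was -0.10, against -2.16 in BMT18. The tumors with the least *Timp4*, *Dnmt3a*+/Δ replicates 2 and 4 and *Dnmt3a*+/+ replicate 3, were also the 3 with the lowest summed smooth muscle markers, at 144, 177 and 16.5 CPM. Within these 3, *Dnmt3a*+/+ replicate 3 had the lowest marker sum but the most *Timp4*, 2.88 CPM. *Dnmt3a*+/Δ replicate 1 had a similar 3.09 CPM with a marker sum of 372 CPM. A relation of *Timp4* to smooth muscle was not tested.

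Per length, epithelial proteases held 59.3% to 72.7% of the summed level of the 45 genes in 6 tumors and 42.8% in *Dnmt3a*+/Δ replicate 2. *Mmp7* alone held 41.9% to 50.3% in the *Dnmt3a*+/+ tumors and 51.9%, 39.6%, 54.3% and 65.8% in *Dnmt3a*+/Δ replicates 1 to 4. The summed level was 186 to 232 RPKM in the *Dnmt3a*+/+ tumors and 272, 1011, 307 and 380 RPKM in the *Dnmt3a*+/Δ tumors. In *Dnmt3a*+/Δ replicate 2, *Mmp10* held 23.0% and *Mmp13* 16.5%, where no other tumor exceeded 4.04% and 4.66%. Leukocyte proteases held 0.706% to 0.762% with *Dnmt3a*+/+ BM and 0.838%, 2.58%, 1.37% and 0.834% with *Dnmt3a*+/Δ BM. The Timps held 8.5% to 10.7% and 7.25%, 5.88%, 10.5% and 9.66%, so the share of inhibitor overlapped between the groups and was lowest in *Dnmt3a*+/Δ replicate 2.

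**Figure D4:**
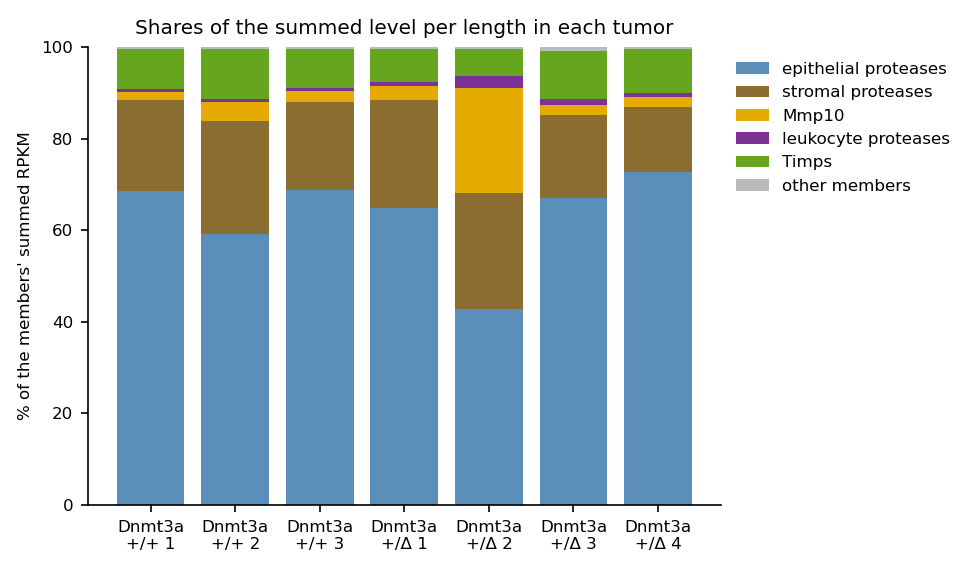
Percent of the summed RPKM of the 45 genes held by each compartment in each tumor. The blue epithelial part, mostly *Mmp7*, is the largest everywhere, from 42.8% in *Dnmt3a*+/Δ replicate 2 to 72.7% in *Dnmt3a*+/Δ replicate 4, and the yellow *Mmp10* part is wide only in *Dnmt3a*+/Δ replicate 2.

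By compartment, the median log2 fold change was -0.19 for 3 epithelial proteases, 1.43 for 16 stromal ones and 1.51 for 4 leukocyte ones. Without *Dnmt3a*+/Δ replicate 2 these medians were 0.03, 0.43 and 0.73. At an unadjusted p under 0.05 with all tumors, 1, 5 and 2 genes were higher, respectively, against the 5.83% of all genes given above. The difference between compartments was not tested. With all tumors, the epithelial median was the value of *Mmp15*, whereas *Mmp7* was at 1.26. Epithelial proteases summed to 251 to 354 CPM in the *Dnmt3a*+/+ tumors and to 330, 600, 382 and 405 CPM in the *Dnmt3a*+/Δ tumors, so the groups overlapped. Stromal proteases summed to 249 to 255 CPM in the *Dnmt3a*+/+ tumors and to 316, 866, 304 and 288 CPM in the *Dnmt3a*+/Δ tumors. *Mmp14* alone gave 123 to 174 CPM of the former sums and 199 to 244 CPM of the latter. Of the 16 stromal genes tested, 4, *Adamts12* among them, had groups that did not overlap, all upward, against 6.12% of all genes. All 7 fibroblast markers had a log2 fold change above 0 (median 0.67, and 0.20 without *Dnmt3a*+/Δ replicate 2) and all 7 were highest in that tumor. *Pdgfra* was the only one of them at an unadjusted p under 0.05. Of the other fibroblast markers, *Dcn* was at 63.3 ± 26.2 (SD, n = 3) CPM and 89.7 ± 40.4 (SD, n = 4) CPM, and *Col1a1* at 239 CPM in *Dnmt3a*+/Δ replicate 2 against 13.2 to 43.3 CPM elsewhere. The 4 endothelial markers summed to 7.58 to 15.7 CPM with *Dnmt3a*+/+ BM and to 15.9 to 97.3 CPM with *Dnmt3a*+/Δ BM, the highest being replicate 2. Their median log2 fold change was 2.16, and 1.30 without that tumor. *Pecam1*, *Cdh5* and *Tek* did not overlap, against 6.12% of all genes separated upward. The nearest tumors of the 2 groups lay at 4.89 and 5.02 CPM for *Cdh5* and at 0.718 and 0.853 CPM for *Tek*. The part of cell composition in the protease values was not tested.

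**Figure D5:**
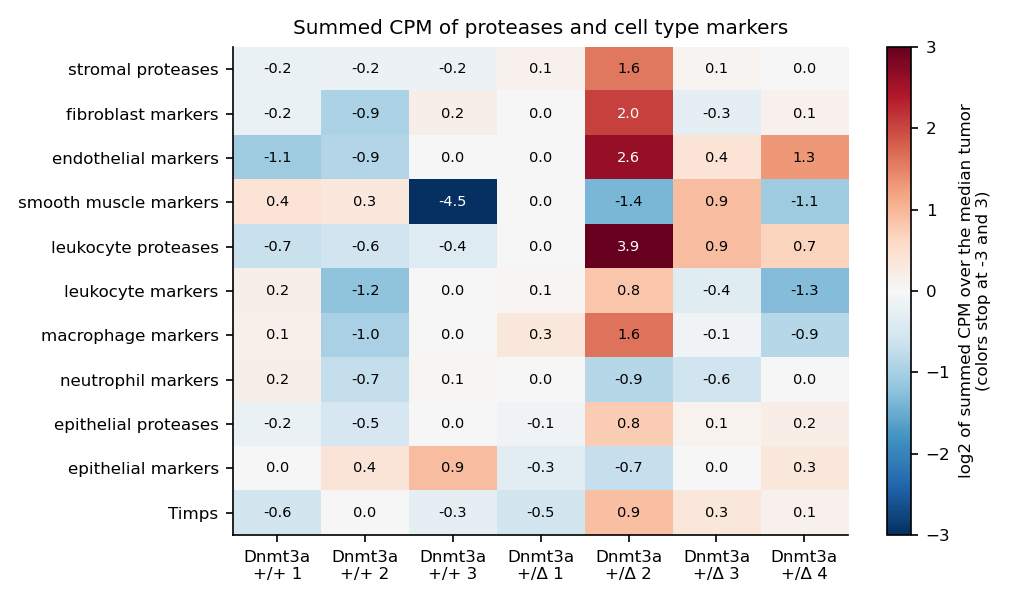
Summed CPM of proteases, inhibitors and cell type markers in each tumor, as log2 over the median of the 7 tumors. *Dnmt3a*+/Δ replicate 2 is at 3.9 for leukocyte proteases, 2.0 for fibroblast markers, 1.6 for macrophage markers and -0.9 for neutrophil markers. The neutrophil sum is mostly *S100a9* and *S100a8*.

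The other genes of the system were taken from a list of activators, binding partners and further inhibitors, of which 21 of 26 were tested. At an unadjusted p under 0.05, 2 were higher (*Lcn2* and *Spock2*) and 0 lower, where 5.83% of all genes were higher, and 12 of the 21 had a log2 fold change above 0, where 50.2% of all genes did. Without *Dnmt3a*+/Δ replicate 2, 15 of 20 were above 0, against 53.1% of all genes in that fit. At that p, 2 were higher and 1 was lower, where 4.00% and 3.15% of all genes were. The lower gene was *Plaur* (the urokinase receptor, log2 fold change -0.97 in that fit and -0.63 with all tumors). *Lcn2* (lipocalin 2, which binds iron carriers of bacteria and forms a complex with Mmp9) was at 21.2, 17.8 and 29.9 CPM with *Dnmt3a*+/+ BM and at 62.8, 549.7, 63.2 and 99.0 CPM with *Dnmt3a*+/Δ BM. Its groups did not overlap, and its log2 fold change was 3.08 ± 0.89 (SE), and 1.73 without *Dnmt3a*+/Δ replicate 2. *Spock2* (testican 2, a secreted proteoglycan) was at 227, 160.4 and 179 CPM against 401, 1366, 827 and 559.8 CPM. Its log2 fold change was 2.06 ± 0.43 (SE, edgeR adjusted p = 0.361, DESeq2 adjusted p = 6.5e-04), and it stayed between 1.69 and 2.31 with each tumor left out. *Bsg* (basigin, an inducer of Mmps and the gene of this list with the highest level per length) was at 835 ± 122 (SD, n = 3) CPM and 709.6 ± 132 (SD, n = 4) CPM, a log2 fold change of -0.23 ± 0.21 (SE). *Vwf*, the substrate of *Adamts13*, was at 4.07 ± 1.05 (SD, n = 3) CPM and 11.2 ± 8.81 (SD, n = 4) CPM. The groups overlapped for *Vwf*, with *Dnmt3a*+/Δ replicate 1 the lowest tumor at 2.35 CPM. Its log2 fold change was 1.47 ± 0.69 (SE), and 0.89 without *Dnmt3a*+/Δ replicate 2. *Adamts13* itself had at most 3 counts in any tumor.

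Between the experiments, 22 of the 33 tested genes had a log2 ratio of mean CPM above 0 in both, 4 were below 0 in both and 7 differed in sign. Of all genes tested, 31.7% were above 0 in both. The median of the 33 genes was 1.47 in BMT18 and 0.48 in BMT8, which holds only 1 *Dnmt3a*+/+ tumor. *Dnmt3a*+/Δ replicate 2 belongs to BMT18.

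The 12 family members with too few counts to test were *Mmp1b*, *Mmp16*, *Mmp20*, *Mmp21*, *Mmp24*, *Mmp27*, *Adamts6*, *Adamts13*, *Adamts16*, *Adamts18*, *Adamts19* and *Adamts20*. None exceeded 36 counts in any tumor. That highest value was *Mmp20* (enamelysin, an enzyme of tooth enamel) in *Dnmt3a*+/Δ replicate 2, which had 5, 3 and 1 counts in the *Dnmt3a*+/+ tumors and 7, 36, 21 and 8 counts in the *Dnmt3a*+/Δ tumors. In a fit without the count filter, *Mmp20* had a log2 fold change of 2.44 (edgeR adjusted p = 0.547) and was the only one of the 12 with an unadjusted p under 0.05, and its groups did not overlap. The groups overlapped for the other 11 genes.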

How the data were processed

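Polyadenylated RNA of 7 whole colon tumors was sequenced. The authors trimmed reads with Trimmomatic, aligned them with STAR to mouse mm10 and quantified genes with RSEM (annotation release not given in the sources used here). The deposited values are RSEM's estimated counts, held as whole numbers and not normalized, of which genes without a symbol held 0.104%. Shared or overlapping reads rest on how RSEM divided them. Symbols, positions and exon lengths came from GENCODE M21. Testing used the quasi-likelihood functions of edgeR 4.0.16 (R 4.3.3) after filterByExpr and TMM scaling, with group as the only term and Benjamini-Hochberg adjustment over all genes tested. P-values measure only the spread between these tumors. RPKM is CPM per kb of merged exons. The steps were tested on simulated data. Every *Mmp* and *Timp* gene that was tested is named with its values, as are *Adamts* genes at an unadjusted p under 0.05, without overlap or among the 3 highest per length. Of other lists, genes at that p and the most abundant were named. The members and lists were chosen with earlier results of these data known. Results were recomputed with DESeq2 1.42.0, with other filters or scalings, with robust dispersion, with the experiment or the replicate number as a term, in BMT18 alone and without each tumor. The same-numbered tumors were not treated as pairs in the main test.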

Additional observations from a re-analysis of the deposited data

Results flagged for a closer look

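In *Dnmt3a*+/Δ replicate 2, 10 of the 33 tested genes lay far above the other *Dnmt3a*+/Δ tumors by Dixon's test on CPM. They were *Mmp13* at 445 CPM, *Mmp10* at 401 CPM, *Mmp12* at 75.3 CPM, *Mmp2* at 59.6 CPM, *Mmp9* at 52.9 CPM, *Adamts4* at 18.8 CPM, *Adamts9* at 17.7 CPM, *Adamts7* at 9.33 CPM, *Adamts2* at 7.52 CPM and *Adamts12* at 3.71 CPM. Chance flags about 1 in 20 groups of normally distributed values, or 1.65 of 33, and the genes are not independent because they were read in the same tumor. The test was not run on all genes, so the share flagged among them is not known. This tumor was the highest for 75.8% of the 33 genes and for 24.7% of all genes tested. On the log2 scale 3 of the 33 genes were set apart. The same tumor had the highest summed fibroblast, macrophage and endothelial markers (666, 185 and 97.3 CPM) and the lowest summed epithelial markers (7273 CPM), and the part of these in the protease values was not tested.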

How the results depend on the processing

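No gene was called by edgeR under any scaling, filter or covariate, and DESeq2 called 300 genes. The count of family members at an unadjusted p under 0.05 was 13 of 33 with all tumors (39.4%, against 11.0% of all genes), 5 of 33 with the replicate block (15.2%, against 11.8%), 3 of 33 in BMT18 alone (9.09%, against 9.46%) and, with each tumor left out, from 3 of 36 (8.33%, against 5.42%) without *Dnmt3a*+/+ replicate 2 to 15 of 32 (46.9%, against 8.59%) without *Dnmt3a*+/Δ replicate 3. The last count holds 1 gene that was lower, and all the others were higher. Same-numbered tumors deviated from their group means with correlations of 0.57, 0.07 and -0.04. Among the *Dnmt3a*+/+ tumors only replicate 1 correlated best with its own number. Replicate 1 of each group also had the closest counts of any pair of tumors. With group means of 3 and 4 tumors, these values cannot decide whether the numbers pair the tumors. With scaling by library size only, all genes had a median of 0.21, the epithelial proteases had a median of 0.054 and *Mmp15* was at 0.054, both below that shift. With each tumor left out, the median log2 fold change ran from 0.46 to 1.42 for all family members, from 0.43 to 1.51 for stromal proteases and from -0.29 to 0.030 for epithelial proteases. The epithelial median and *Mmp28* were at 0.030 without *Dnmt3a*+/+ replicate 1 and at 0.026 without *Dnmt3a*+/Δ replicate 2. *Mmp28* ran from -0.58 to 0.030 in all, and *Mmp19* from -0.11 without *Dnmt3a*+/Δ replicate 2 to 1.26 without replicate 4. The leukocyte median stayed between 0.73 and 1.85. The cause of these changes was not tested. Depth limits the 12 genes that did not pass the count filter, none of which exceeded 36 counts.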
